A study of Mus musculus with 6 samples.

Results

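Ribosome biogenesis factors are the nuclear and nucleolar proteins that transcribe, modify, cut and fold ribosomal RNA (rRNA) on its way into the 40S and 60S subunits. Here, 40 such genes were followed, out of the 23183 gene symbols in the data. They were chosen by symbol and by known function and not by their values, but earlier results of these data were known at the time. They fall into RNA polymerase I with its factor Ubtf (4 genes), the box C/D small nucleolar ribonucleoproteins (snoRNPs, 4 genes) and the H/ACA snoRNPs (4 genes). A further role holds nucleolar phosphoproteins, shuttling factors and a helicase (5 genes), called nucleolar proteins below. The others are 40S maturation (13 genes) and 60S maturation (10 genes). Sorted CD4+CD8+ double-positive (DP) thymocytes, the immature T cells that make up most of the thymus, had been sequenced from WT mice (Nsrp1 f/f, with both floxed alleles and no Cre) and from NSrp70-cKO mice (Nsrp1 f/f CD4Cre). All mice were C57BL/6 at 6 weeks of age, and each genotype gave 3 libraries. NSrp70, the product of Nsrp1, is a nuclear speckle protein involved in splicing. The CD4Cre transgene acts only in T lineage cells from late in the double-negative stage, and nothing in the labels says whether the libraries of a genotype came from different mice, so the p-values below measure the spread between libraries, which may be technical.

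RNA polymerase I transcribes 1 long precursor, the 45S pre-rRNA, in the nucleolus. Box C/D snoRNPs then methylate riboses and H/ACA snoRNPs turn uridines into pseudouridines at sites chosen by a small nucleolar RNA (snoRNA), while the small subunit processome and the 60S assembly factors cut and fold the precursor. Dividing thymocytes are known to make many ribosomes, and DP thymocytes that have stopped dividing make fewer.

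Several of these genes carry snoRNA genes inside them. In the GENCODE M21 annotation on GRCm38, 7 of the 40 factors (17.5%) contained a snoRNA gene on their own strand, against 222 of 10224 tested genes (2.17%) with an annotation. Those genes were Nop56 (5 snoRNA genes), Nop58 (4), Ncl (3), Gnl3 (3), Wdr43 (3), Tsr1 (2) and Dkc1 (1). From Nop56, Nop58, Ncl and Gnl3, 1 box C/D snoRNA each is shown, because the values of these hosts are described below and because Nop56 and Nop58 encode core proteins of the very particle that holds such RNAs. Capitals mark box C (TGATGA) and the last CTGA, box D.
Snord110 (in Nop56, chr2:130275506-130275573, plus strand): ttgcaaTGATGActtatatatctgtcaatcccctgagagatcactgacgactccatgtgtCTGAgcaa
Snord11 (in Nop58, chr1:59704790-59704873, plus strand): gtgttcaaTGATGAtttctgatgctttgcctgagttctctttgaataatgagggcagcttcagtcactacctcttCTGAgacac
Snord82 (in Ncl, chr1:86356261-86356330, minus strand): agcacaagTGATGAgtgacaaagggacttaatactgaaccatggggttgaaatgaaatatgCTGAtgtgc
Snord69 (in Gnl3, chr14:31014287-31014366, minus strand): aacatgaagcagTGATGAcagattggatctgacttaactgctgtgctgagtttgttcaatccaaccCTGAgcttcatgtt
These 4 snoRNAs were listed at 0 in all 6 libraries, which were made from polyadenylated RNA. The values below are those of the host genes, and whether snoRNA fragments entered them was not tested.

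Before the factors, the libraries themselves were compared. Nsrp1, listed under its older symbol Ccdc55, was at 20.2, 20.7 and 21.1 FPKM (fragments per kilobase of transcript, normalised to sequencing depth) in WT 1, 2 and 3 and at 17.7, 15.8 and 15.0 FPKM in cKO 1, 2 and 3. It was lower in all 3 cKO libraries (log2 fold change -0.34, SE 0.077, adjusted p = 0.00675 by limma with Benjamini-Hochberg adjustment), but most of its FPKM level remained. Once the WT libraries were averaged into 1 sample, the change no longer passed the threshold. The paper reported a significant loss of NSrp70 protein in cKO thymocytes by western blot. An FPKM value measures RNA over the whole gene and does not tell intact transcripts from others. The FPKM files hold no read counts. From the steps of 1 fragment among low values the depth was estimated as 20.8 to 21.0 M fragments (M, mega) in WT and 13.2 to 20.9 M in cKO, and the FPKM total was 521296 to 531517 in WT and 701396 to 850548 in cKO. The variance between libraries was 1.51 to 1.62 times that of counting for pairs of WT libraries and 27.5 to 62.4 times for pairs of cKO libraries, so the WT spread is close to that of repeated sequencing. Xist was at 69.8 to 72.0 FPKM in WT and 4.07 to 5.44 FPKM in cKO, and the Y-linked genes Uty, Kdm5d, Eif2s3y and Ddx3y had a value of 0 in WT and lay between 5.83 and 43.8 FPKM in cKO. Sex and genotype therefore cannot be told apart, also for Dkc1 and Utp14a, which lie on chromosome X. The sorted population held its defining transcripts, with Cd4 at 486 to 487 FPKM in WT and 566 to 723 FPKM in cKO, and Cd8a at 680 to 688 FPKM and 1003 to 1163 FPKM.

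Most of the 40 factors were higher in NSrp70-cKO DP thymocytes. All 40 passed the filter of 1 FPKM in at least 3 libraries, and 31 of them were called higher and 2 lower (limma on log2(FPKM + 1), adjusted p under 0.05). Among all 10326 tested genes, 35.8% were called higher and 29.8% lower, so the 31 of 40 (77.5%) lay above the background and the 2 of 40 (5.0%) below it. The median log2 fold change of the factors was 0.47, against 0.039 over all tested genes, and 35 of 40 lay above that median of all genes. The values of the 3 cKO libraries lay entirely above those of the 3 WT libraries in 31 factors and entirely below them in 4, where 39.2% and 33.3% of all tested genes did so. Only 3 factors, Nhp2, Npm1 and Nop58, reached a mean FPKM in cKO of at least 2 times that in WT (3 of 40, or 7.5%, against 5.34% of tested genes). In bulk libraries, a change in the share of cells of a type and a change in RNA per cell cannot be told apart.

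**Figure D1:**
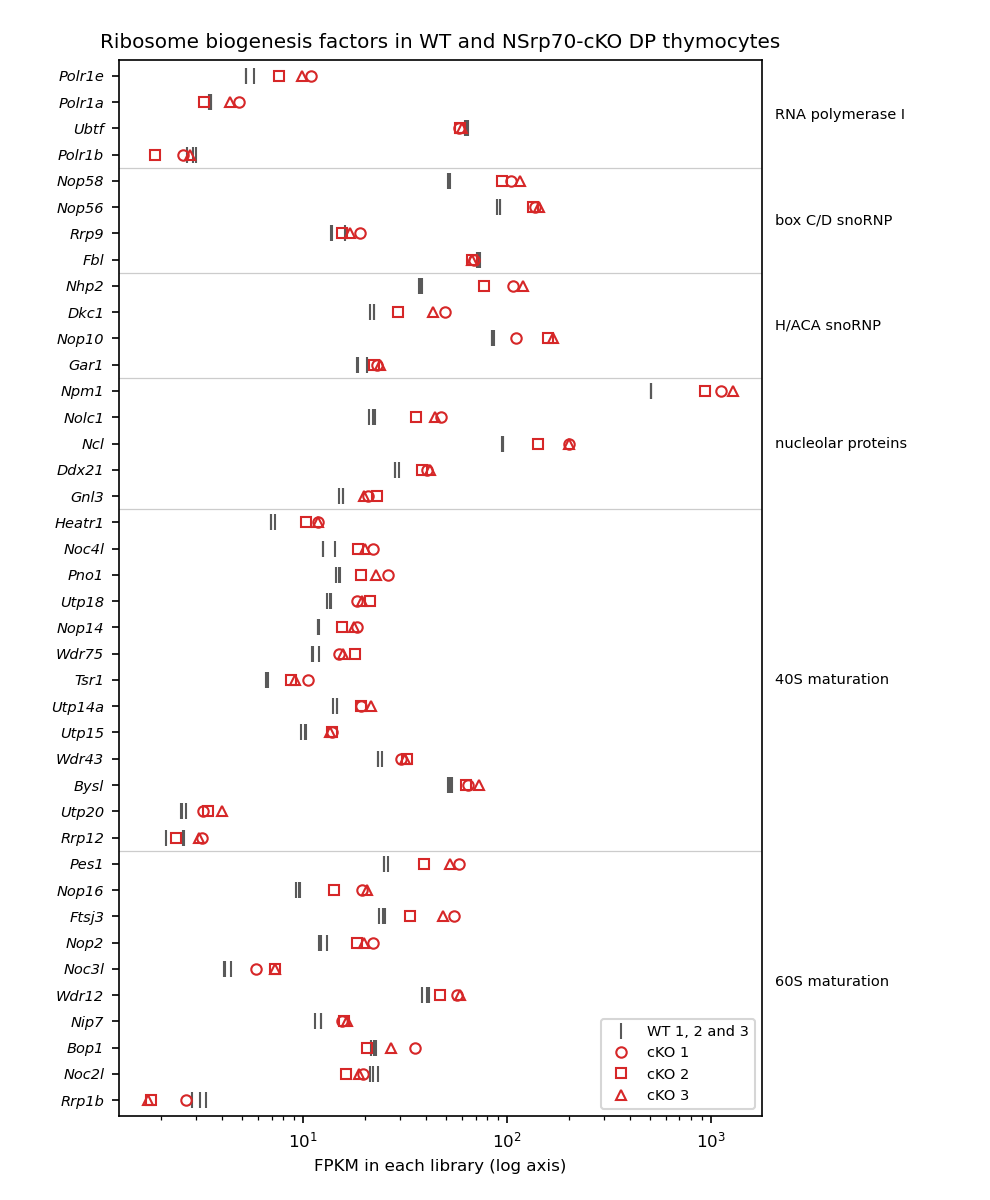
FPKM of the 40 factors in each library on a log axis, ordered within each role by fold change. Grey bars are the 3 WT libraries and red symbols the 3 cKO libraries. The red symbols lie to the right of the grey bars in 31 factors, to the left in Ubtf, Fbl, Noc2l and Rrp1b, and among them in 5.

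How far the direction holds depends on the scaling. When every library was scaled to the same FPKM total, the median of all tested genes moved from 0.039 to -0.45, with 8.74% of them called higher and 59.9% lower, and the median of the factors moved to -0.05, with 7 called higher and 8 lower. The 7 were Nhp2, Nop58, Npm1, Nolc1, Ncl, Pes1 and Nop16, and the 8 were Polr1b, Ubtf, Fbl, Rrp9, Gar1, Bysl, Noc2l and Rrp1b. Relative to the median of all genes, 35 of 40 factors lay above it with either scaling. Quantile normalization gave 31 factors higher and 3 lower, where 33.7% and 29.4% of all genes were called. Taking transcript length and GC content out of every library gave 33 higher and 0 lower (none lower at an unadjusted limma p under 0.05 either), where 30.0% and 26.6% of all genes were called. With WT averaged into 1 sample, limma called 3 higher (Nhp2, Nop58 and Nolc1) and 0 lower, which is 7.5% of the factors against 7.21% of all genes called higher and 8.73% called lower, so in that setting the count of factors was near the background. At an unadjusted limma p under 0.05 that setting gave 27 factors higher and 0 lower, where 21.7% and 19.0% of all genes passed.

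Of the 6 roles, the 4 RNA polymerase I genes had the lowest median change. Of these genes, 1 was called higher and 3 were not called, with a median log2 fold change of 0.04. Polr1e, which encodes a subunit that helps the enzyme start, was at 5.27, 5.74 and 5.23 FPKM in WT and 10.97, 7.63 and 9.89 FPKM in cKO. All 3 cKO libraries were above WT, and the gene rose by a log2 fold change of 0.70 (SE 0.13, limma adjusted p = 0.00274). Polr1a, the largest catalytic subunit, was at 3.45, 3.52 and 3.54 FPKM in WT and 4.85, 3.28 and 4.37 FPKM in cKO. Polr1b, the other large catalytic subunit, was at 2.90, 2.99 and 2.69 FPKM in WT and 2.56, 1.89 and 2.80 FPKM in cKO. For both subunits cKO 2 was the lowest of all 6 libraries and the groups overlapped, with log2 fold changes of 0.18 (SE 0.12, limma adjusted p = 0.225) and -0.18 (SE 0.12, limma adjusted p = 0.205). Without cKO 2, Polr1a was called higher (log2 fold change 0.32, limma adjusted p = 0.00679). Ubtf, the factor that binds rRNA gene promoters and keeps them open, was far more abundant, at 63.2, 64.1 and 62.2 FPKM in WT and 58.0, 58.5 and 60.2 FPKM in cKO. Its cKO values all lay just below WT, by a log2 fold change of -0.10 (SE 0.058) that did not pass the test (limma adjusted p = 0.162) and that changed to 0.24 with the correction for length and GC content, where Ubtf was called higher (limma adjusted p = 0.0125).

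The box C/D proteins did not move as 1 unit. Nop58 and Nop56 are the paired scaffold proteins of the particle, and Fbl (fibrillarin) is its methyltransferase. Nop58 was at 52.2, 51.3 and 51.8 FPKM in WT and 104.7, 94.7 and 115.6 FPKM in cKO, a log2 fold change of 1.00 (SE 0.086, limma adjusted p = 0.000184). Nop56 was at 89.1, 92.5 and 92.5 FPKM in WT and 136.8, 134.5 and 144.0 FPKM in cKO, a log2 fold change of 0.59 (SE 0.065, limma adjusted p = 0.000387). Both rose in all 3 cKO libraries with no overlap. Fbl was at 70.9, 73.4 and 72.1 FPKM in WT and 69.0, 67.0 and 67.6 FPKM in cKO, so its cKO values lay slightly below WT, with a log2 fold change of -0.09 (SE 0.058, limma adjusted p = 0.222). Rrp9, which encodes the U3-specific protein of this group, was at 13.7 to 16.0 FPKM in WT and 15.5 to 19.0 FPKM in cKO and was not called (limma adjusted p = 0.0858), but was called higher without cKO 2 (log2 fold change 0.30, limma adjusted p = 0.0217). The difference in change between Fbl and its partners was not tested. With quantile normalization Fbl and Ubtf were called lower, at -0.34 and -0.33.

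All 4 H/ACA proteins were called higher, with a median log2 fold change of 0.79. Nhp2, a small RNA-binding core protein, had the largest change of the 40 factors. It lies on chr11:51619735-51623714 (GRCm38, plus strand) and was at 38.0, 38.3 and 37.1 FPKM in WT and 106.8, 76.6 and 120.0 FPKM in cKO, so that even the lowest cKO library was above all WT libraries. The log2 fold change was 1.37 (SE 0.16, limma adjusted p = 0.000456), and it stayed positive with the same FPKM total (0.82) and with the correction for length and GC content (1.06). Dkc1 (dyskerin), the pseudouridine synthase of the particle, was at 22.3, 22.2 and 21.3 FPKM in WT and 49.6, 29.2 and 43.3 FPKM in cKO (log2 fold change 0.83, SE 0.18, limma adjusted p = 0.00571). In Dkc1 cKO 2 stood well below the other two, though still above WT. Gar1, which joins the particle last, had the smallest change, from 18.5, 18.3 and 20.5 FPKM in WT to 23.0, 22.2 and 23.8 FPKM in cKO (log2 fold change 0.26, SE 0.071, limma adjusted p = 0.0161). Its call was lost without WT 1 (limma adjusted p = 0.0728) or without WT 2 (limma adjusted p = 0.0778), and its sign turned with the same FPKM total (-0.28). Nop10, the smallest protein of the set, was at 84.1 to 85.8 FPKM in WT and 110.6 to 168.7 FPKM in cKO, and here cKO 1 and not cKO 2 was the lowest. With the correction for length and GC content its log2 fold change of 0.76 fell to 0.17 and was no longer called (limma adjusted p = 0.261).

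The 5 nucleolar proteins were all called higher, with a median log2 fold change of 0.91, the highest of the 6 roles. With quantile normalization their median was 0.43, below those of the H/ACA (0.58), 60S (0.53) and 40S (0.51) factors. Npm1 (nucleophosmin), a chaperone of the outer nucleolus, was at 509.3, 510.4 and 509.9 FPKM in WT and 1118, 934 and 1281 FPKM in cKO (log2 fold change 1.11, SE 0.13, limma adjusted p = 0.000531). Ncl (nucleolin), which binds nascent pre-rRNA, was at 94.2, 95.3 and 96.0 FPKM in WT and 201.2, 142.0 and 202.0 FPKM in cKO (log2 fold change 0.91, SE 0.14, limma adjusted p = 0.0015). Nolc1, a shuttling partner of both snoRNP classes, was at 22.0, 22.6 and 21.1 FPKM in WT and 47.2, 35.7 and 44.4 FPKM in cKO (log2 fold change 0.91, SE 0.11, limma adjusted p = 0.000527). In these 3 genes cKO 2 was the lowest of the cKO libraries and remained above every WT library. Gnl3 (nucleostemin), a GTPase of dividing cells, changed least, from 15.7, 14.9 and 15.7 FPKM to 20.9, 23.1 and 19.9 FPKM (log2 fold change 0.44, SE 0.073, limma adjusted p = 0.00182), and with the correction for length and GC content its value was 0.08 (limma adjusted p = 0.413). The helicase Ddx21 lay between them, at 28.1 to 29.5 FPKM in WT and 38.2 to 41.7 FPKM in cKO. Npm1 supplied much of the total level. The 40 factors together made up 0.282 to 0.288% of the FPKM total of a WT library and 0.328 to 0.341% of that of a cKO library. Without Npm1 the shares were 0.186 to 0.190% and 0.190 to 0.196%, ranges that nearly touch. Those totals included Rn45s, the entry for the 45S pre-rRNA, at 6028 to 6118 FPKM in WT and 0 in cKO. Leaving that entry out raises the WT shares and does not change those of cKO. Without Npm1 the highest WT share (0.1901%, WT 2) lay just below the lowest cKO share (0.1904%, cKO 3). With Rn45s left out as well, these ranges overlap. Npm1 and Nop56 each have 4 pseudogenes that match at least 95% of 200 or more bases, Pes1 has 2, and Fbl, Ddx21 and Wdr12 have 1. The annotated Wdr12 transcript also has such matches to Cxcr2, Gm44044, Ppip5k1 and Vmn1r88, which are not pseudogenes. Reads shared with those copies and genes could not be separated in the FPKM values.

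The 40S maturation factors formed the most even group. Of the 13, 12 were called higher and 1 was not called, the median log2 fold change was 0.45, and no member exceeded 0.61. Heatr1, a very large scaffold protein of the small subunit processome that is also needed for pre-rRNA transcription, was at 6.93, 7.28 and 6.95 FPKM in WT and 11.9, 10.3 and 11.8 FPKM in cKO (log2 fold change 0.61, SE 0.078, limma adjusted p = 0.000651). Noc4l, a partner of Nop14 in the 40S pathway, was at 12.6, 14.4 and 12.5 FPKM in WT and 22.0, 18.5 and 20.1 FPKM in cKO (log2 fold change 0.58, SE 0.090, limma adjusted p = 0.00141). Both genes showed no overlap between groups. The processome subunits Utp14a, Utp15, Utp18, Utp20, Wdr43 and Wdr75 were called higher with log2 fold changes between 0.34 and 0.51. So were Nop14 (0.49), the late 40S factors Bysl (0.34) and Tsr1 (0.45), and Pno1 (0.57), a binding protein of the maturing 40S. Utp15 was the most even of them, at 9.71 to 10.3 FPKM in WT and 13.5 to 13.9 FPKM in cKO. Rrp12, a factor in the export of pre-ribosomes, was the member not called, at 2.12, 2.59 and 2.61 FPKM in WT and 3.20, 2.38 and 3.07 FPKM in cKO (log2 fold change 0.17, SE 0.12, limma adjusted p = 0.224). It was called higher without cKO 2 (log2 fold change 0.27, limma adjusted p = 0.0363) and with the correction for length and GC content (0.62). Utp20, at 2.53 to 2.66 FPKM in WT and 3.21 to 4.01 FPKM in cKO, was not called without WT 1 (limma adjusted p = 0.0502). Pno1, at 14.5 to 15.2 FPKM in WT and 19.2 to 26.2 FPKM in cKO, was at 0.02 with the correction (limma adjusted p = 0.909).

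The 60S maturation factors ranged from -0.43 to 0.93, with 7 called higher, 2 lower and 1 not called and a median log2 fold change of 0.50. Pes1, Bop1 and Wdr12 form 1 complex that is needed to process the 60S precursor. Pes1 was at 24.9, 26.2 and 25.0 FPKM in WT and 58.4, 39.2 and 52.7 FPKM in cKO (log2 fold change 0.93, SE 0.14, limma adjusted p = 0.00127). Wdr12 was at 40.3, 38.2 and 41.3 FPKM in WT and 56.5, 46.8 and 58.7 FPKM in cKO (log2 fold change 0.42, SE 0.099, limma adjusted p = 0.00799). Bop1 was at 22.3, 22.7 and 21.4 FPKM in WT and 35.3, 20.5 and 26.9 FPKM in cKO (log2 fold change 0.27, SE 0.18, limma adjusted p = 0.212). Within the complex, then, 2 genes rose in all 3 cKO libraries, while in Bop1 cKO 2 was below every WT library and the other two above. Without cKO 2, Bop1 was called higher (log2 fold change 0.47, limma adjusted p = 0.00882). Nop16, a 60S assembly factor, was at 9.64, 9.26 and 9.51 FPKM in WT and 19.5, 14.2 and 20.5 FPKM in cKO (log2 fold change 0.85, SE 0.14, limma adjusted p = 0.00156). Ftsj3 (an rRNA methyltransferase, 0.84), Nop2 (an rRNA cytosine methyltransferase, 0.65), Noc3l (0.57) and Nip7 (0.38) were called higher too.

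Rrp1b and Noc2l were the 2 factors called lower. Rrp1b, a chromatin-associated relative of the 60S factor Rrp1, was at 3.35, 2.85 and 3.11 FPKM in WT and 2.65, 1.79 and 1.74 FPKM in cKO (log2 fold change -0.43, SE 0.13, limma adjusted p = 0.0226). Noc2l, a 60S factor that is also known to bind histones and p53, was at 23.3, 21.3 and 22.1 FPKM in WT and 19.6, 16.2 and 18.8 FPKM in cKO (log2 fold change -0.28, SE 0.088, limma adjusted p = 0.027). In both genes every cKO library lay below every WT library, but the gaps were small. The call of Rrp1b was lost without WT 1, WT 3, cKO 2 or cKO 3 (limma adjusted p between 0.0518 and 0.0801), and that of Noc2l without any one of the WT libraries (limma adjusted p between 0.0523 and 0.102). With the correction for length and GC content, Noc2l was at 0.05 and Rrp1b at -0.19, and neither was called.

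**Figure D2:**
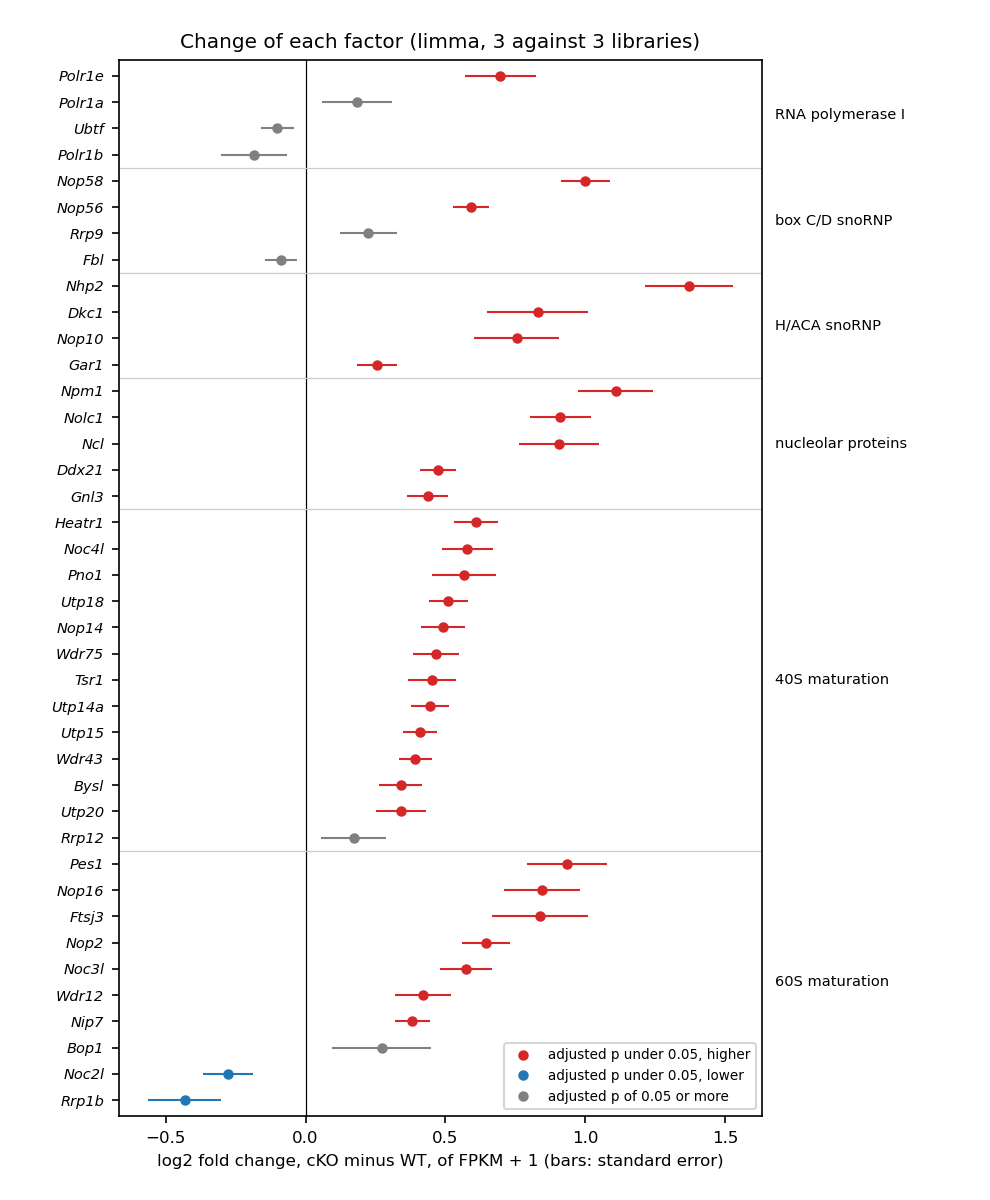
Log2 fold change (cKO minus WT) of log2(FPKM + 1) for the 40 factors with its standard error from limma, 3 libraries per genotype, coloured by call. All members of the H/ACA group and of the nucleolar proteins lie to the right of 0, while Rrp1b and Noc2l lie to the left. With every library scaled to the same FPKM total 18 of the positive values turn negative.

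The cKO libraries were not alike. Over the 40 factors the coefficient of variation between libraries had a median of 2.78% in WT and 10.3% in cKO. In 22 of the 31 factors called higher (71.0%), cKO 2 was the lowest of the cKO libraries, which was so for 59.0% of all 3693 genes called higher. The median factor lay 0.46, 0.40 and 0.54 above its WT mean on the log2 scale in cKO 1, 2 and 3, while the median of all tested genes lay 0.03, 0.06 and 0.05 above. Without cKO 2, 35 factors were called higher and 1 lower, where 4132 and 3522 of the 10326 tested genes were called. In 6 of them (Utp15, Utp18, Wdr43, Wdr75, Gnl3 and Noc3l) cKO 2 was the highest.

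Marker transcripts of other cell states moved with genotype too. All 16 listed genes of dividing cells, among them Mki67, Top2a and Pcna, were called higher (median log2 fold change 1.01), and their summed level was 1336 to 1338 FPKM in WT and 2724, 2593 and 2950 FPKM in cKO 1, 2 and 3. Of 10 genes of mature single-positive T cells, 8 were called lower and 2 higher, with Ccr7 at 15.1 to 16.2 FPKM in WT and 1.16 to 2.50 FPKM in cKO, while the sum of the list was 362 to 370 FPKM and 337 to 421 FPKM. Of 10 DP genes 7 were called higher and 2 lower, with sums of 5846 to 5928 FPKM and 7655 to 9901 FPKM. The 3 tested genes of double-negative thymocytes were called lower, and the sum of that list was 11.9 to 13.1 FPKM in WT and 5.77 to 7.06 FPKM in cKO. Erythroid transcripts summed to 0.603 to 1.07 FPKM in WT and 3.50 to 10.9 FPKM in cKO. The sum of 8 myeloid genes was 7.96 to 10.3 FPKM in WT and 7.50 to 9.22 FPKM in cKO, and that of 6 epithelial genes 3.56 to 3.98 FPKM and 1.92 to 3.67 FPKM, with Krt5, Krt14 and Foxn1 listed at 0 throughout. The part that dividing cells, loss of mature cells or erythroid RNA play in the level of the ribosome biogenesis factors was not tested.

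The other genes of the pathway gave a similar picture. They too were listed with earlier results of these data known. Of a list of 130 genes outside the 40, 127 were found and tested. Of these, 86 were called higher (67.7%, against 35.8% of all tested genes), 15 lower (11.8%, against 29.8%) and 26 neither, with a median log2 fold change of 0.45. The remaining RNA polymerase I subunits and initiation factors had 9 higher and 2 lower of 13 (median log2 fold change 0.55, above that of the 4 described before). The polymerase subunits found (Polr1c, Polr1d, Polr2e, Polr2f, Polr2h, Polr2k and Polr2l) were all higher, and the Polr2 genes are named for RNA polymerase II. The other factors were mixed, with Taf1b and Ttf1 higher, Taf1a and Taf1c lower, and Taf1d and Rrn3 not called. Other 40S factors had 30 higher and 3 lower of 43, and other 60S factors 30 and 6 of 47. The snoRNP assembly factors had 7 and 2 of 10, and the nuclear RNA exosome 10 and 2 of 14. With the same FPKM total the list had 18 higher (14.2%, against 8.74% of all tested genes) and 37 lower (29.1%, against 59.9%). With the correction for length and GC content it had 69 higher (54.3%, against 30.0% of all tested genes) and 11 lower (8.66%, against 26.6%). The median of the exosome genes went from 0.46 to 0.03 with that correction. Rrp15, a 60S factor, rose from between 10.7 and 11.99 FPKM in WT to between 19.4 and 32.4 FPKM in cKO (log2 fold change 1.16, SE 0.18, limma adjusted p = 0.00142). Aatf, a 40S processing factor, rose from between 12.2 and 12.96 FPKM to between 25.02 and 34.1 FPKM (log2 fold change 1.15, SE 0.11, limma adjusted p = 0.000279), and Ruvbl1, an ATPase of snoRNP assembly, from between 26.0 and 27.7 FPKM to between 49.97 and 67.6 FPKM (log2 fold change 1.11, SE 0.11, limma adjusted p = 0.0003). These 3 had the largest changes of the list, and their groups did not overlap. At the other end were Pelp1 (log2 fold change -0.68, limma adjusted p = 0.00101), part of a complex that remodels the 60S precursor, Taf1c (-0.63, limma adjusted p = 0.0017), a subunit of the initiation factor SL1, and Rrs1 (-0.60, limma adjusted p = 0.00546), which brings the 5S rRNA particle to the 60S precursor. Pelp1 was at 13.3 to 13.9 FPKM in WT and 7.37 to 9.43 FPKM in cKO, Taf1c at 22.7 to 23.8 FPKM and 12.5 to 16.6 FPKM, and Rrs1 at 15.7 to 17.5 FPKM and 9.18 to 13.1 FPKM. With the correction for length and GC content Pelp1 went to -0.20 (limma adjusted p = 0.0770) and Taf1c to -0.05 (limma adjusted p = 0.574), and both calls were lost.

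**Figure D3:**
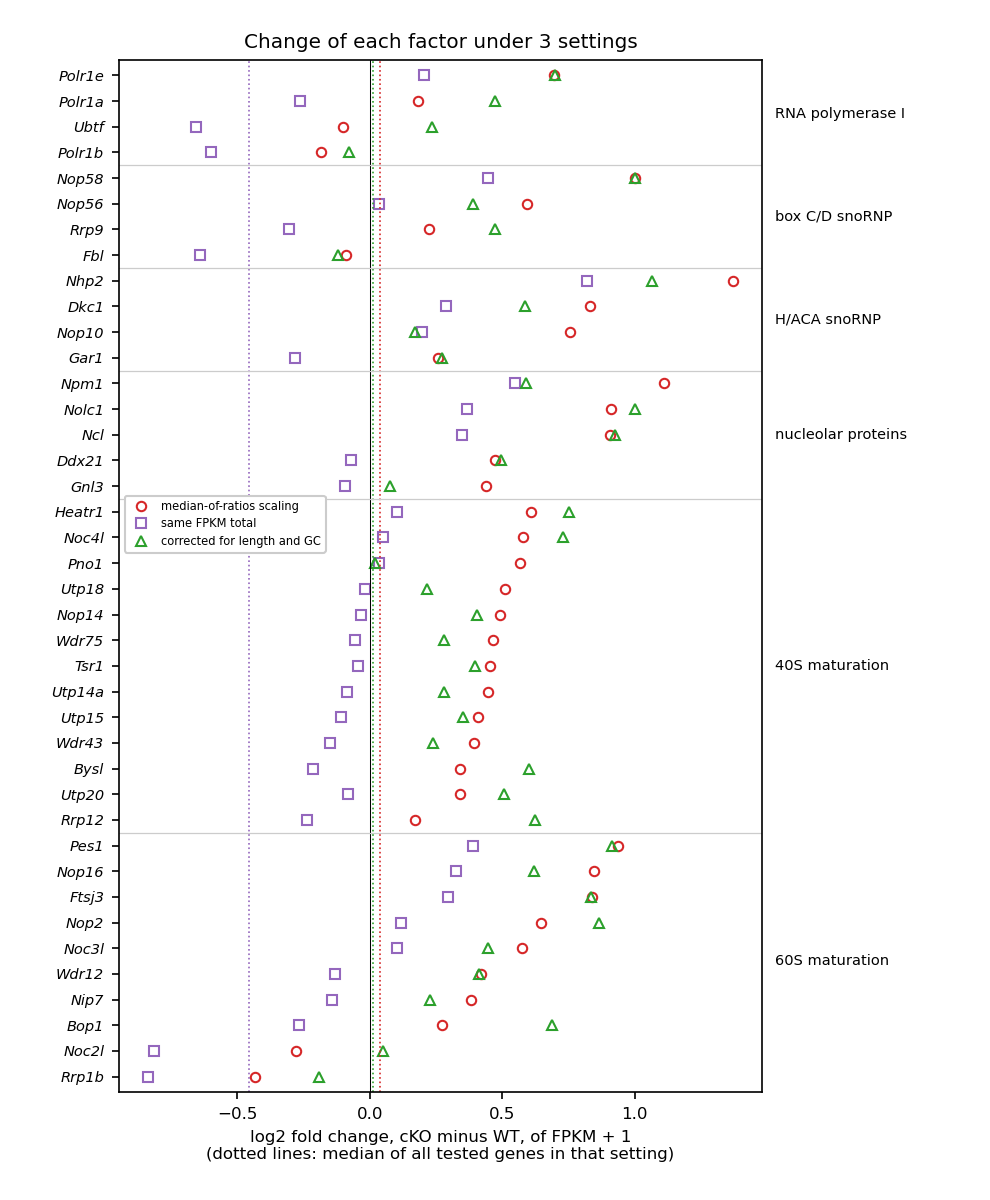
Log2 fold change of each factor with median-of-ratios scaling (circles), with every library scaled to the same FPKM total (squares) and with transcript length and GC content taken out (triangles). Dotted lines are the median of all tested genes in each setting, at 0.039, -0.45 and 0.01. The squares lie left of the circles by a similar step, as does their dotted line, whereas the triangles move individual genes either way.

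Change and transcript make-up went together. Across the 40 factors the log2 fold change had a Spearman correlation of -0.42 with the GC content of the annotated transcript, -0.27 with its coding length and 0.32 with the mean WT level, and across all tested genes of -0.34, -0.32 and 0.18. These are correlations across genes measured in the same libraries, and genes are not independent replicates. The log2(FPKM + 1) scale understates changes of low genes, which enters the correlation with the WT level. How much it adds was not tested. Of the 20 factors with the lowest GC content (40.4 to 48.3%) all 20 were called higher, with a median log2 fold change of 0.48, while 47.2% of the 3511 tested genes in that range were. Of the 20 with the highest (49.9 to 59.8%), 11 were called higher and 2 lower, with a median of 0.31, while 27.3% and 40.6% of the 4784 tested genes in that range were. After the correction for length and GC content the medians were 0.40 and 0.61, the reverse order. Rrp9, Bop1, Fbl, Noc2l, Rrp12 and Ubtf, 6 of the 9 factors not called higher, had a GC content of 54.1% or more. So did Gar1, Noc4l, Nop2 and Nhp2, which were called higher. With the correction Rrp9 (0.47), Bop1 (0.69), Rrp12 (0.62) and Polr1a (0.47) were called higher, as was Ubtf (0.24), and Fbl was at -0.12.

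**Figure D4:**
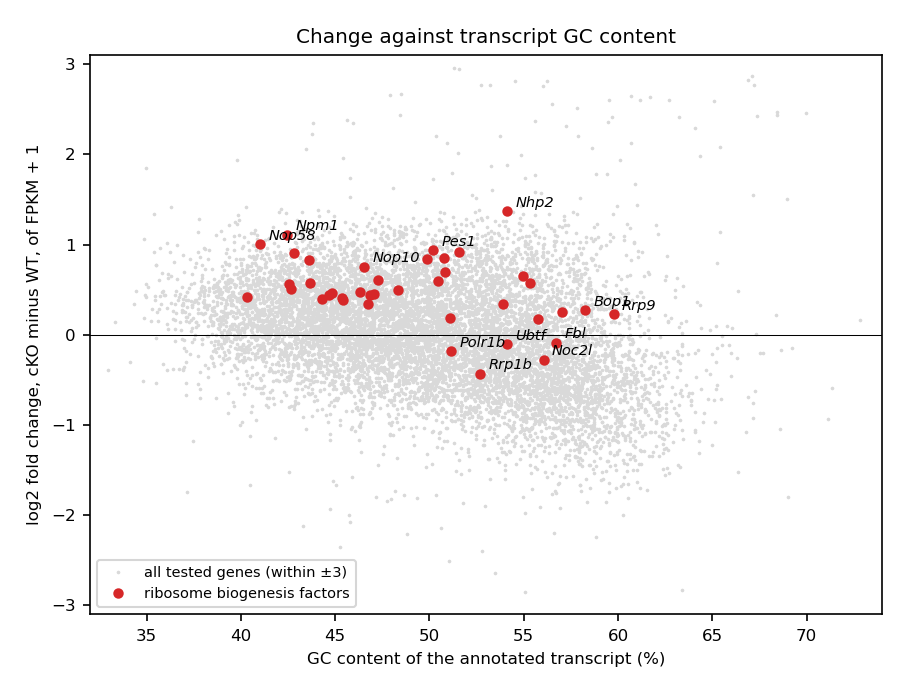
Log2 fold change (cKO minus WT) of log2(FPKM + 1) against the GC content of the annotated transcript, for the 40 factors (red) and all tested genes within 3 of 0 (grey). Both clouds slope downward, with Spearman correlations of -0.42 and -0.34, and Nhp2 stands above the other factors of similar GC content.

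Promoter letters were searched as a feature the choice of genes did not use. RefSeq windows on GRCm38.p6, from 250 bases before to 50 bases after the start, were at hand for 36 of the 40 factors. The E-box CACGTG, which reads the same on both strands and is bound by Myc and related factors, was in 7 of these 36 (19.4%), against 12.3% of 7923 tested genes with a window and 8.09% of all 27025 genes with one. The element CTCGCGAG, also the same on both strands, was in 1 (2.78%), Tsr1, against 2.46% and 1.04%. Nop2 and Utp18 had the E-box before the start, and Pes1, Pno1, Tsr1, Utp20 and Wdr43 after it. All 7 were called higher, with log2 fold changes of 0.34 to 0.93, as were 23 of the 29 without an E-box. Among all tested genes, 35.8% of those with an E-box and 35.3% of those without it were called higher. The 100 bases before the start are shown for the 2 genes with an upstream E-box, in capitals, and for Nolc1, which rose more than either and had none in its window.
Nop2 (chr6:125131783-125131882, plus strand): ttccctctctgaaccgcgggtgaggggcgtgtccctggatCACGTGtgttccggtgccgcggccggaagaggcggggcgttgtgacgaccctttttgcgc
Utp18 (chr11:93885767-93885866, minus strand): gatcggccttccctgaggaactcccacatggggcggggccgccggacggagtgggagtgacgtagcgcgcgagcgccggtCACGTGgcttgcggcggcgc
Nolc1 (chr19:46075747-46075846, plus strand): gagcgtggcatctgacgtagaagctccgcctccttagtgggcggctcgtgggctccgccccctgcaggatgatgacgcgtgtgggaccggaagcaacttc
Nop2 was at 13.1, 12.3 and 11.9 FPKM in WT and 22.1, 18.4 and 19.8 FPKM in cKO, and Utp18 at 13.0, 13.7 and 13.6 FPKM and 18.3, 21.2 and 19.4 FPKM, with no overlap in either. The match of letters describes the sequence and does not show binding.

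The snoRNA hosts named at the start were also among the genes that rose. All 7 factors with a snoRNA gene inside were called higher, with log2 fold changes of 0.39 to 1.00, against 24 of the 33 without one. Over all tested genes, 108 of 222 hosts (48.6%) and 35.6% of the genes without a snoRNA gene were called higher. The median log2 fold change was 0.27 over all tested hosts and 0.59 over the 7 factors. Nop58, Ncl, Dkc1, Wdr43, Gnl3 and Tsr1 were among the 20 factors of lowest GC content, all of which were called higher. In that GC range 47.2% of all tested genes were called higher. Whether hosts differ from other genes of similar GC content was not tested.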

How the data were processed

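The 6 libraries of sorted DP thymocytes, 3 per genotype, were analysed, with groups and replicate numbers taken from the labels. The authors extracted RNA with Trizol, made directional poly(A)-enriched libraries after removal of rRNA, mapped the reads to mm10 with TopHat, and deposited 1 FPKM value per gene symbol and library. For the mapping and FPKM software the versions, and also the gene annotation, are not given in the sources used here. FPKM divides by transcript length and mapped fragments, so a difference in composition between libraries shifts all other genes. The study tested counts, and its count test cannot be run on FPKM, so limma took its place.

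Size factors by the median of ratios (1.00 to 1.01) were divided out. Genes at 1 FPKM or more in at least 3 libraries (10326) were tested on log2(FPKM + 1) with limma 3.58.1 in R 4.3.3 (eBayes, mean trend), with Benjamini-Hochberg adjustment over all of them at 0.05. Fold changes are on the log2(FPKM + 1) scale and understate those of low genes. The script was tested on simulated data in which both groups had the same spread, which was not so in these libraries. Symbols were matched to GENCODE M21 (22110 directly and 640 through RefSeq synonyms, with 38 standing for several genes and 395 for none). Length, GC content and coordinates came from the RefSeq-matched transcript of best annotation, and near copies from blastn 2.17.0. Depth was estimated from 2611 single-transcript genes with an assumed fragment length of 200 bases. The correction fitted natural splines with 5 degrees of freedom to length and GC content in every library. Python 3.11.15 was used for tables and figures.

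The factors, pathway list, markers and alternatives were chosen with earlier results of these data known. Library values are given for the 2 largest and the smallest log2 fold change of each role, and for Polr1a, Polr1b, Ubtf, Nop56, Nop58, Fbl, Dkc1, Ncl, Npm1 and Heatr1. Members whose call was lost or whose sign turned are named, with some exceptions. With the same FPKM total and with WT counted as 1 sample, the members still called are named instead of those that lost a call. The 2 that lost a call with quantile normalization are not named. Nor are all of the 6 that lost one with the length and GC correction and the replicate block. Of the pathway list, the 3 largest and 3 most negative are named. Levels given outside this rule (Rrp9, Bop1, Wdr12, Noc2l, Nop2, Nop10, Ddx21, Pno1, Utp15, Utp18 and Utp20) were chosen after they were seen. Polr1f, Polr1g and Polr1h were not found in the files under these symbols. A marker list is not reported here. The alternatives were another pseudocount (0.1), no filter, a filter of 5 FPKM, quantile normalization, the same FPKM total, no scaling, no trend, WT counted as 1 sample, a replicate block, the length and GC correction with and without that block, and each library left out in turn.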

Additional observations from a re-analysis of the deposited data

How the results depend on the processing

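The count of factors called higher (31) was 29 to 35 with 1 library left out, 30 of 35 tested at 5 FPKM and 31 to 33 in the other settings, except for 7 with the same FPKM total and 3 with WT counted as 1 sample. The count called lower (2) was 1 at 5 FPKM, 8 with the same FPKM total, 0 with WT counted as 1 sample and with the length and GC correction without or with the replicate block, and 0 to 2 with 1 library left out (0 without WT 1 or WT 3, where 1 and 2 were lower at an unadjusted limma p under 0.05). The median log2 fold change of 0.47 turned to -0.051 with the same FPKM total. There, 18 factors turned negative: Polr1a (-0.26), Rrp9 (-0.30), Gar1 (-0.28), Gnl3 (-0.094), Ddx21 (-0.072), Utp14a (-0.085), Utp15 (-0.11), Utp18 (-0.017), Utp20 (-0.082), Wdr43 (-0.15), Wdr75 (-0.056), Nop14 (-0.034), Bysl (-0.21), Tsr1 (-0.046), Rrp12 (-0.24), Bop1 (-0.27), Wdr12 (-0.13) and Nip7 (-0.14). With the length and GC correction, without or with the replicate block, Ubtf turned to 0.24 and Noc2l to 0.051. In the pathway list, 86 higher and 15 lower became 18 and 37 with the same FPKM total (8.74% and 59.9% of all genes), 20 and 0 with WT counted as 1 sample (7.21% and 8.73%), and 75 to 90 and 8 to 17 with 1 library left out. The value for Nsrp1 stayed at -0.34 with WT counted as 1 sample, past the threshold no longer. The causes were not tested. Replicate numbers did not pair the samples (correlations of same-numbered deviations of -0.022, 0.039 and 0.031), and with the replicate block 31 factors were higher and 2 lower, and 84 and 12 of the pathway list. Depth was estimated and not counted, and the lowest estimate behind a factor was 129 fragments, for Polr1b in cKO.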

Other observations

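Rn45s, the entry for the 45S pre-rRNA, was at 6099, 6118 and 6028 FPKM in WT 1, 2 and 3 and was listed at 0 in all 3 cKO libraries. The libraries were selected for poly(A) and depleted of rRNA before sequencing. A difference in the cells and a difference in how the files of the genotypes were made cannot be told apart for this entry. Rn45s was among the 10326 tested genes and was counted in the FPKM totals. It therefore entered the background percentages, the scaling to the same FPKM total and the shares of the factors in the total. Of the 10 box C/D snoRNA entries inside the factors, 9 were listed at 0 in every library, and Snord57, inside Nop56, was listed at 5529 FPKM in WT 3 and at 0 in the other 5 libraries.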
